A study of Mus musculus with 10 samples.

Results

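The genes described here are those of neutrophil granules and neutrophil maturation in mouse bone marrow (BM). A list of 42 gene names was used, and a name was kept where the array has a probe set annotated to that gene alone. This held for 39 of the names, each with 1 such probe set, out of 19938 genes measured in this way. The names without a probe set of their own were Fpr1 and Fpr2, which encode formyl peptide receptors, and Chi3l3, an older name of Chil3, which is on the list under its present name. The 39 genes were grouped by role, with 5 of the primary granule, 3 regulators, 14 of the secondary and tertiary granules, 7 late receptors and 10 of the cytosol and the oxidase. The role names are broad. Ms4a3 was placed with the primary granule genes as a marker of that stage. Padi4 and Retnlg were placed with the cytosol and oxidase genes without regard to where their products lie.

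The study asked whether vitamin D (VD) deficiency in utero leaves a lasting program in fetal liver hematopoietic stem cells (FL-HSCs). VD(−) recipients were C57BL6 mice that had received FL-HSCs from embryos of dams on a VD-deficient diet, and VD(+) recipients had received FL-HSCs from embryos of dams on a VD-sufficient diet. Per the study's methods, donors carried CD45.2, recipients carried CD45.1, recipients of both groups were lethally irradiated and VD-sufficient, and donor cells were pooled from embryos of both sexes. The 10 arrays comprise 5 per group, with 3 single samples and 2 pools in each, and the labels give mice of 8 weeks and of both sexes. That is the recipients' age at transplant per the methods, and the study's text and a figure legend differ on the time between transplant and collection, so the age at collection is not settled. BM is the labelled source, whereas the treatment field of the labels names BM macrophages. Markers of other BM lineages were present, with 8 of 9 erythroid genes measured at mean log2 values of 7.01 to 11.1 and 11 of 12 B cell genes at 5.27 to 9.65, so the RNA was treated as that of whole BM. Values are log2 signals of the probe sets, and a difference of 1 is a 2-fold difference. In bulk RNA, fewer neutrophils and less of a transcript per neutrophil cannot be told apart.

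Neutrophils fill their granules in waves. Promyelocytes make the proteases and myeloperoxidase of the primary granules, myelocytes and metamyelocytes make the antimicrobial proteins of the secondary granules and then the gelatinase of the tertiary granules, and band and segmented cells gain the receptors with which mature neutrophils leave the marrow and find their targets. The order is set in part by the transcription factors PU.1, Gfi1 and the C/EBP family, among them C/EBPε, which is needed for secondary granule genes.

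Promoter sequence from RefSeq (GRCm38.p6) was at hand for 33 of the 39 genes, in 36 windows of 250 bases before to 50 bases after a transcription start. The letters GAGGAA, the core of PU.1 sites, occurred on either strand in 24 of the 36 windows (66.7%), against 28.3% of all 32851 promoter windows. The letters TTNNGNAA, as in C/EBP sites, occurred in 17 of the 36 windows (47.2%), against 40.7% of all windows. The motifs do not overlap in the stretches printed here. The 150 bases before the start are given for Prtn3 and Elane, neighbouring primary granule genes on chromosome 10, for the late receptor gene Cxcr2, and for Fcnb, the granule gene with the smallest p below, with the matched letters in capitals.
Prtn3 promoter (chr10:79879517-79879666, plus strand): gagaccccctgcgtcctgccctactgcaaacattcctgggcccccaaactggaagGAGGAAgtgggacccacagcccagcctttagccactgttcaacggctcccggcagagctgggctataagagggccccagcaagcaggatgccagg
Elane promoter (chr10:79886162-79886311, plus strand): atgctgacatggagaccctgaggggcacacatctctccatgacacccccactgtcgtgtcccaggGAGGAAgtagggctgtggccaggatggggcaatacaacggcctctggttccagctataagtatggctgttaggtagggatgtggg
Cxcr2 promoter (chr1:74153844-74153993, plus strand): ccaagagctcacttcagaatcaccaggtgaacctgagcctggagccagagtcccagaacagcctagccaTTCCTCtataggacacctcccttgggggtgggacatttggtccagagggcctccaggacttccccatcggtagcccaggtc
Fcnb promoter (chr2:28084879-28085028, minus strand): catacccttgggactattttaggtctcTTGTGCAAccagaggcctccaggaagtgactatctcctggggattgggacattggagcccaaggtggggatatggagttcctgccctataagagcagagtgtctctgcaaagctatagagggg
In Prtn3 and Elane the capitals mark GAGGAA, which begins 95 and 85 bases before the start. In Cxcr2 they mark the same motif read from the other strand, beginning 81 bases before the start. In Fcnb they mark a match to TTNNGNAA that begins 123 bases before the start. These matches are letters in a window, and binding was not measured.

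None of the 39 neutrophil genes differed between VD(−) and VD(+) HSC recipient BM at an adjusted p under 0.05 in limma, against 0.118% of all 35556 probe sets. The smallest adjusted p was 0.674, for Fcnb. At a nominal p under 0.05, 1 gene was higher (Fcnb) and 0 were lower, against 3.85% and 3.23% of all probe sets, and the methods' t-test gave 0. In 0 of the 39 genes did the 5 arrays of one group all lie above those of the other, against 1.55% of all probe sets. The log2 fold changes, VD(−) over VD(+), ran between −0.20 for Ceacam10 and 0.37 for Olfm4 with a median of −0.03, beside 0.00 for all probe sets. They were above 0 in 16 genes (41.0%) and below 0 in 23, against 49.1% of all probe sets above 0. Of the 8770 genes at or above the level of the least bright of the 39, 57.4% were above 0, with a median of 0.02. For 33 of the 39 genes (84.6%) the 95% interval lay within −0.5 to 0.5 on the log2 scale, against 76.7% of all probe sets. Among the 8770 genes at or above the level of the least bright of the 39, it did so for 8001, a larger share than among the 39. Of the 39, the genes whose interval reached further were Fcnb, Olfm4, Ceacam10, Ly6g, Csf3r and Il1r2.

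**Figure D1:**
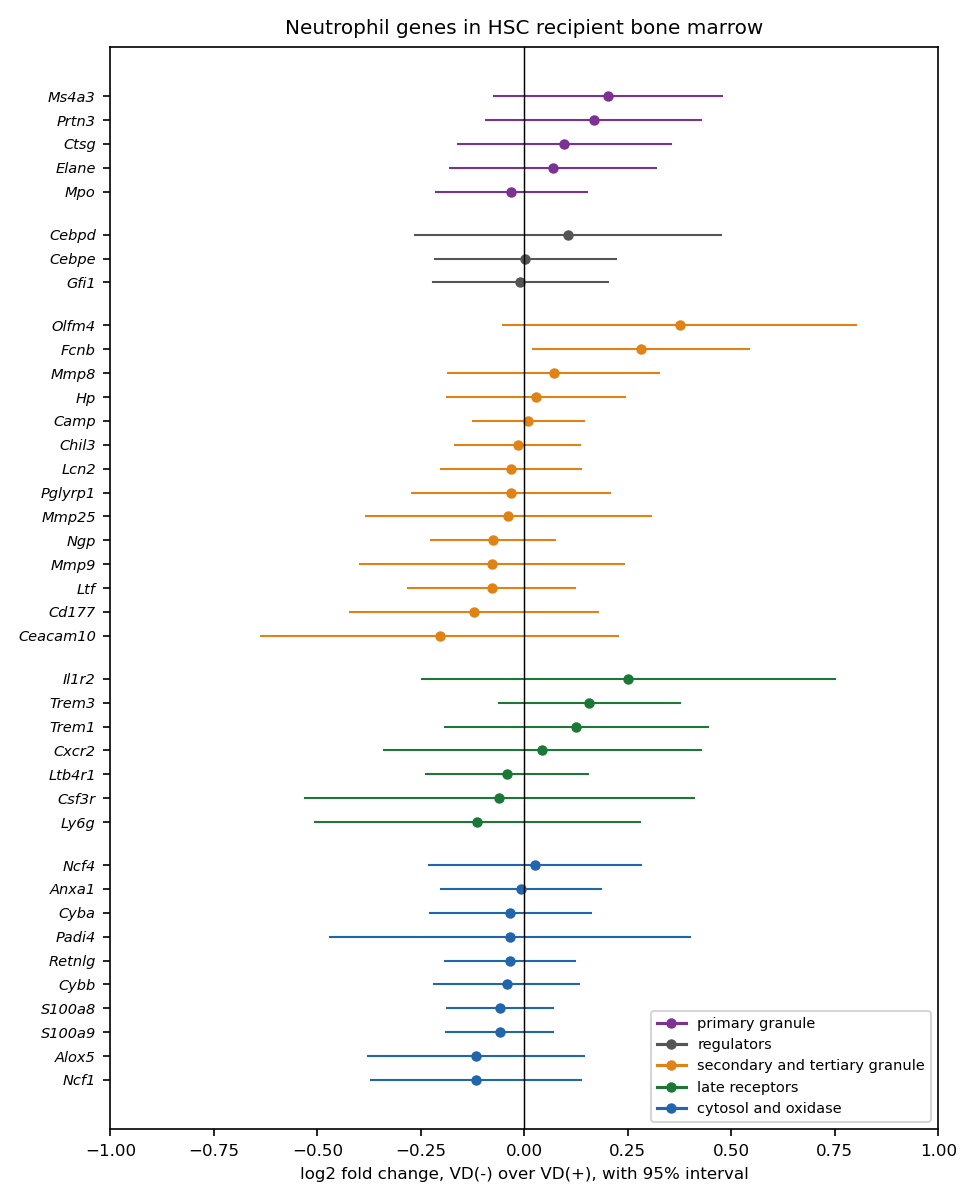
Log2 fold change of each of the 39 neutrophil genes, VD(−) over VD(+) HSC recipient BM (points), with its 95% interval from limma (lines), grouped by role. The intervals of 38 genes include 0, and that of Fcnb runs between 0.02 and 0.54.

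Among the primary granule genes, 4 of 5 had values above 0, with a median log2 fold change of 0.10 and no adjusted p under 0.789. In each sentence on single arrays the values of a group are in the order replicates 1, 2 and 3, pool 1 and pool 2. Ms4a3, which marks granulocyte-monocyte progenitors and promyelocytes, was at 10.33, 10.72, 10.13, 10.28 and 10.33 in VD(−) HSC recipients, against 9.89, 10.28, 10.05, 10.40 and 10.17 in VD(+) HSC recipients. Its 2 groups overlapped, with VD(−) replicate 2 above the other 9 arrays and VD(+) replicate 1 below them. The log2 fold change was 0.20 (adjusted p = 0.789 from limma, SE 0.12). Prtn3, which encodes proteinase 3, was at 9.98, 10.33, 10.18, 9.81 and 10.09 in VD(−) HSC recipients, against 9.98, 10.07, 9.66, 10.08 and 9.77 in VD(+) HSC recipients. Here too the highest array was VD(−) replicate 2, the lowest was VD(+) replicate 3, and the groups overlapped with a log2 fold change of 0.17 (adjusted p = 0.806 from limma, SE 0.12). Mpo, which encodes the myeloperoxidase that makes hypochlorous acid, was at 11.80, 11.99, 11.94, 11.67 and 11.88 in VD(−) HSC recipients, against 12.00, 11.99, 11.77, 11.89 and 11.78 in VD(+) HSC recipients. Its arrays of both groups covered nearly the same range, and its log2 fold change was −0.03 (SE 0.08, 95% interval −0.21 to 0.15). Elane, the neutrophil elastase gene, and Ctsg, the cathepsin G gene, had log2 fold changes of 0.07 (SE 0.11) and 0.10 (SE 0.12).

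The regulators had log2 fold changes of 0.11 for Cebpd, 0.00 for Cebpe and −0.01 for Gfi1. Cebpd, which encodes a C/EBP factor of late granulocytes and of the acute phase response, was at 7.13, 7.93, 7.76, 6.99 and 7.46 in VD(−) HSC recipients, against 7.45, 7.25, 7.24, 7.41 and 7.37 in VD(+) HSC recipients. The VD(+) arrays were close together (SD 0.10), whereas VD(−) had both the 3 highest and the 2 lowest of the 10 arrays (SD 0.40). Cebpe, the secondary granule regulator, was at 8.24, 8.52, 8.42, 8.09 and 8.28 in VD(−) HSC recipients, against 8.49, 8.41, 8.30, 8.14 and 8.21 in VD(+) HSC recipients. Gfi1, a repressor needed for granulocyte fate, was at 5.55, 5.63, 5.31, 5.33 and 5.38 in VD(−) HSC recipients, against 5.57, 5.56, 5.25, 5.56 and 5.31 in VD(+) HSC recipients. Both genes overlapped fully between the groups, with 95% intervals of −0.22 to 0.22 for Cebpe and −0.22 to 0.20 for Gfi1.

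In the secondary and tertiary granule genes the median log2 fold change was −0.03, with 5 of 14 above 0. Fcnb encodes ficolin B, a lectin of the complement pathway made in myeloid cells of the marrow. It was at 8.92, 9.26, 8.95, 8.83 and 8.83 in VD(−) HSC recipients, against 8.53, 8.98, 8.54, 8.80 and 8.52 in VD(+) HSC recipients. The 5 VD(−) arrays lay above 4 of the 5 VD(+) arrays, while VD(+) replicate 2 lay above 4 of the VD(−) arrays. Fcnb averaged 8.96 ± 0.18 in VD(−) and 8.68 ± 0.21 in VD(+) HSC recipient BM (SD, n = 5 arrays each). The difference was 1.22-fold (95% interval 1.02 to 1.46), with a log2 fold change of 0.28 (adjusted p = 0.674 from limma, SE 0.12). For Fcnb, permuting the group labels over the 10 arrays (exact permutation test, two-sided) gave a p of 0.0794. Its log2 fold change was 0.36 in the single samples alone and 0.17 in the pools alone, and it was 0.21 without VD(−) replicate 2. Without VD(−) replicate 1, 2 or 3, or without VD(+) replicate 1, replicate 3 or pool 2, Fcnb no longer passed a nominal p under 0.05, with log2 fold changes of 0.21 to 0.29.

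Olfm4, which marks a subset of neutrophils and is stored in their secondary granules, was at 7.92, 8.21, 8.15, 7.67 and 8.23 in VD(−) HSC recipients, against 8.00, 7.93, 7.04, 7.92 and 7.41 in VD(+) HSC recipients. The spread was wider in VD(+), where replicate 3 and pool 2 were the lowest of the 10 arrays. Its log2 fold change was 0.37 (SE 0.19, 95% interval −0.05 to 0.80, adjusted p = 0.741 from limma). Camp, which encodes the antimicrobial cathelicidin, was at 12.76, 12.83, 12.71, 12.70 and 12.75 in VD(−) HSC recipients, against 12.68, 12.81, 12.68, 12.80 and 12.72 in VD(+) HSC recipients. Its arrays lay close together in both groups, with a log2 fold change of 0.01 (SE 0.06). The other secondary granule genes had small values as well, among them lactoferrin (Ltf, −0.08), neutrophilic granule protein (Ngp, −0.08), lipocalin 2 (Lcn2, −0.03) and Chil3 (−0.02), a chitinase-like protein. Of the metalloproteinases, the collagenase gene Mmp8 had 0.07, the gelatinase gene Mmp9 had −0.08, and Mmp25, a membrane-bound member, had −0.04. Haptoglobin (Hp) had 0.03, the peptidoglycan-binding protein gene Pglyrp1 had −0.03, and Cd177, which encodes a surface glycoprotein stored in granule membranes, had −0.12.

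Of the 7 late receptor genes, 4 had log2 fold changes above 0, with a median of 0.04. Their standard errors were larger than those of the other roles (median 0.17, against 0.11 over the 39 genes). Trem3, an activating receptor of myeloid cells in the mouse, was at 9.07, 9.37, 9.04, 9.09 and 9.23 in VD(−) HSC recipients, against 8.78, 9.20, 9.003, 9.13 and 8.89 in VD(+) HSC recipients. The groups overlapped, with a log2 fold change of 0.16 (adjusted p = 0.796 from limma, SE 0.10). Il1r2, the decoy receptor for interleukin 1, was at 8.61, 9.41, 9.43, 8.71 and 9.20 in VD(−) HSC recipients, against 8.14, 9.25, 8.97, 8.95 and 8.78 in VD(+) HSC recipients. In VD(−) replicates 2 and 3 lay above the other 8 arrays, and in VD(+) replicate 1 lay below the other 9, so that its log2 fold change of 0.25 had an SE of 0.23. Ly6g, the antigen by which mouse neutrophils are usually identified, was at 10.20, 11.06, 10.38, 10.10 and 10.25 in VD(−) HSC recipients, against 10.50, 10.74, 10.28, 10.71 and 10.32 in VD(+) HSC recipients. VD(−) replicate 2 lay apart from the other 4 VD(−) arrays, and the log2 fold change was −0.11 (SE 0.18, 95% interval −0.505 to 0.279). The leukotriene B4 receptor gene Ltb4r1 had a log2 fold change of −0.04 (SE 0.09).

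**Figure D2:**
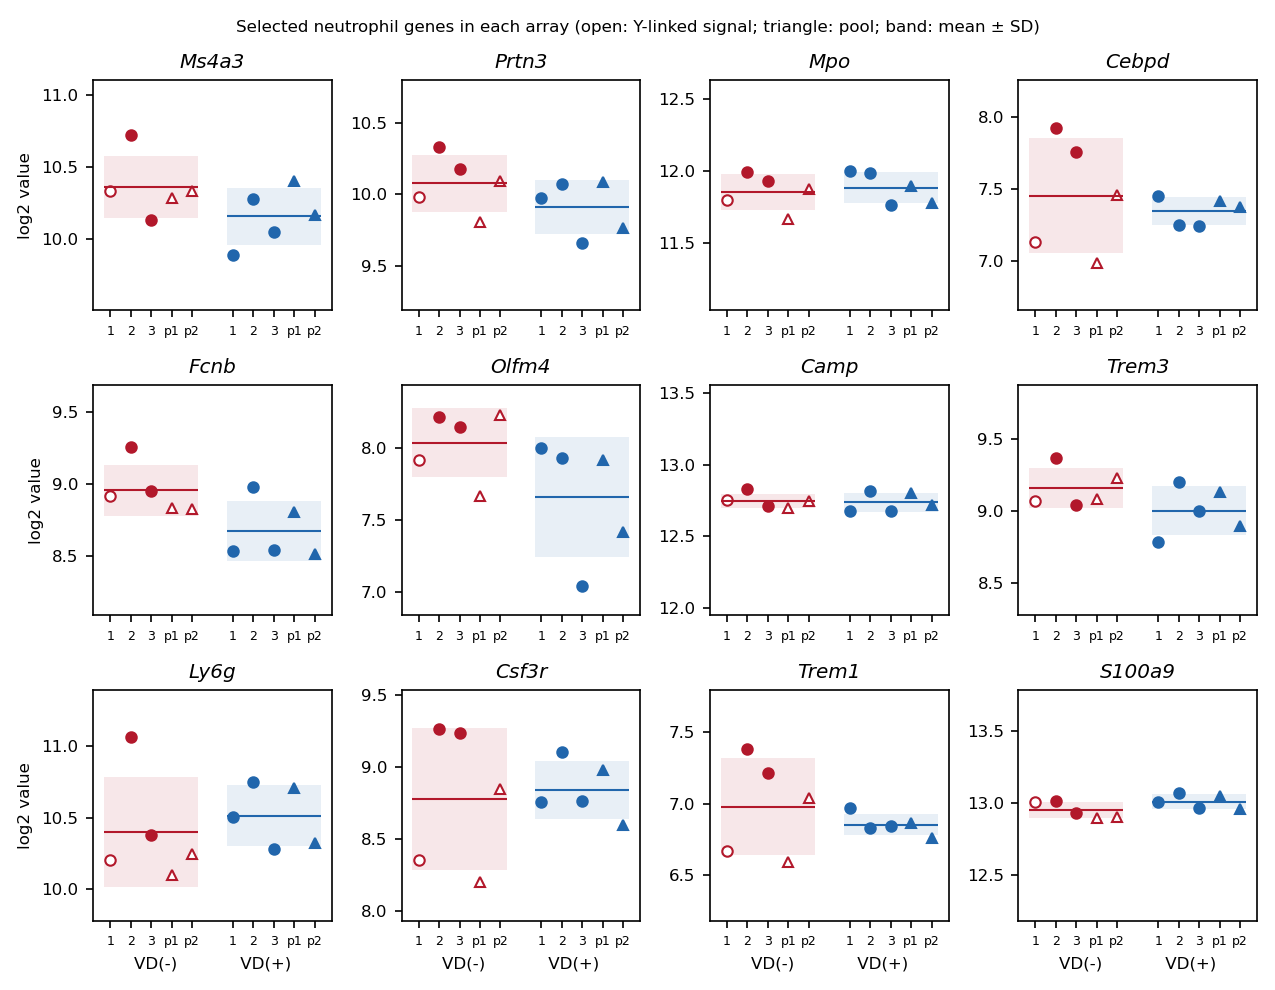
Log2 value of 12 neutrophil genes in each array, VD(−) in red and VD(+) in blue, with 1, 2 and 3 for replicates and p1 and p2 for pools. Lines are group means, bands are mean ± SD over 5 arrays, triangles are pools, open symbols are arrays with Y-linked signal, and each y axis spans 1.6 log2 units. Csf3r, Trem1 and Cebpd have VD(−) replicates 2 and 3 at the top and VD(−) replicate 1 and pool 1 at the bottom.

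Among the cytosolic and oxidase genes, 9 of 10 values were below 0, with a median of −0.04 and a range of −0.12 to 0.02. S100a8 and S100a9 encode the subunits of calprotectin, the main cytosolic protein of neutrophils. S100a8 was at 12.71, 12.70, 12.60, 12.60 and 12.60 in VD(−) HSC recipients, against 12.73, 12.70, 12.66, 12.73 and 12.66 in VD(+) HSC recipients. S100a9 was at 13.01, 13.02, 12.93, 12.90 and 12.90 in VD(−) HSC recipients, against 13.01, 13.07, 12.96, 13.05 and 12.96 in VD(+) HSC recipients. The groups overlapped in both genes, with a log2 fold change in each of −0.06 (adjusted p = 0.863 from limma, SE 0.06). Whether their bright probe sets were near the upper limit of the array was not tested. Ncf1, which encodes the p47phox organiser of the NADPH oxidase, was at 9.38, 9.77, 9.41, 9.13 and 9.42 in VD(−) HSC recipients, against 9.41, 9.74, 9.58, 9.53 and 9.43 in VD(+) HSC recipients. VD(−) held both the highest and the lowest of the 10 arrays (adjusted p = 0.863 from limma). The subunits of that oxidase, which makes superoxide, had log2 fold changes of −0.04 for Cybb, −0.03 for Cyba, −0.12 for Ncf1 and 0.02 for Ncf4. Alox5, the 5-lipoxygenase gene of leukotriene synthesis, had −0.12, the annexin gene Anxa1 had −0.01, the resistin-like gene Retnlg had −0.04 and Padi4, whose product citrullinates histones in neutrophil extracellular traps, had −0.03.

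The arrays differed from each other along the whole list. VD(−) replicate 2 was the highest of its 5 arrays in 35 of the 39 genes and VD(−) pool 1 was the lowest in 26. In VD(+), replicate 2 was the highest in 25 genes and pool 2 the lowest in 16. The mean deviation of the 39 genes from the mean of the 10 arrays ran between −0.21 and 0.29 in VD(−) and between −0.13 and 0.15 in VD(+). The SD was larger in VD(−) than in VD(+) for 31 of the 39 genes (79.5%), against 48.9% of all probe sets, and its median was 0.20 in VD(−) and 0.14 in VD(+). This count is a description, since the genes varied together. Over the 10 arrays the deviations from the group means had a mean pairwise Pearson r of 0.65 among the 39 genes, 0.73 among secondary and tertiary granule genes, 0.70 among late receptors and 0.68 among primary granule genes. The same mean was 0.01 over the 8770 genes at or above the level of the least bright of the 39. Ltf, Pglyrp1, Mmp8 and Ly6g followed the mean of the other members most closely (r of 0.97, 0.95, 0.95 and 0.94), and S100a8 least (0.45).

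**Figure D3:**
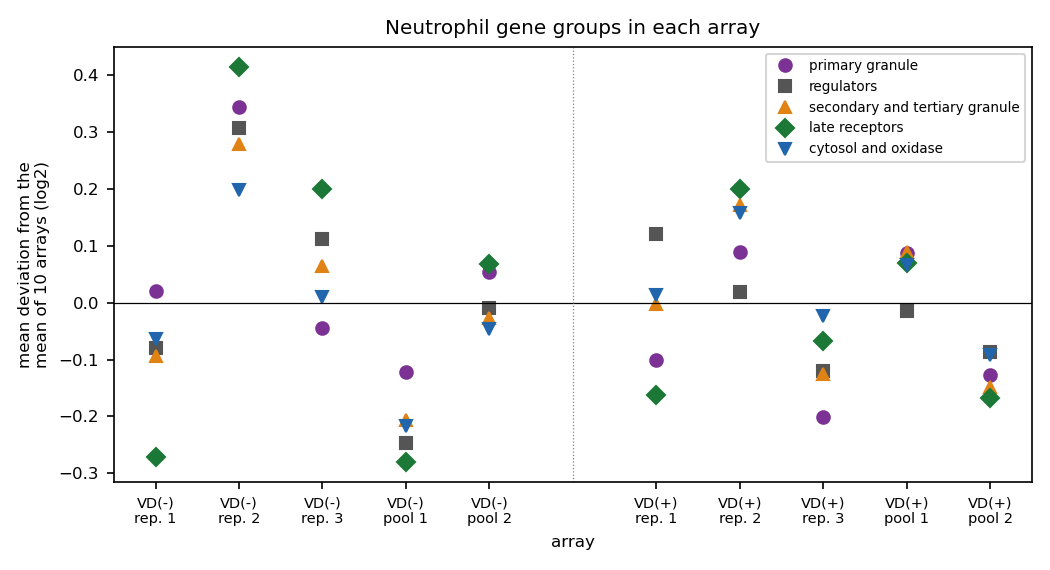
Mean deviation of each role's genes from their mean over the 10 arrays (log2), with the VD(−) arrays on the left and the VD(+) arrays on the right. VD(−) replicate 2 lies above 0 for every role (0.20 to 0.41) and VD(−) pool 1 below 0 for every role (−0.28 to −0.12).

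The late receptors spread furthest within VD(−). Their mean deviation was −0.27, 0.41, 0.20, −0.28 and 0.07 in the 5 VD(−) arrays and −0.16, 0.20, −0.07, 0.07 and −0.17 in the 5 VD(+) arrays. Of the genes shown for this spread, chosen after their values were seen, Csf3r encodes the receptor for granulocyte colony-stimulating factor. It was at 8.35, 9.27, 9.24, 8.20 and 8.85 in VD(−) HSC recipients, against 8.76, 9.10, 8.76, 8.98 and 8.60 in VD(+) HSC recipients. Trem1, which amplifies inflammatory signals, was at 6.67, 7.38, 7.21, 6.59 and 7.04 in VD(−) HSC recipients, against 6.97, 6.83, 6.84, 6.87 and 6.76 in VD(+) HSC recipients. In both genes VD(−) replicates 2 and 3 lay above, and VD(−) replicate 1 and pool 1 below, the 5 VD(+) arrays. Cxcr2, the chemokine receptor that draws neutrophils out of the marrow, was at 9.52, 10.39, 10.21, 9.58 and 10.07 in VD(−) HSC recipients, against 9.82, 10.18, 9.79, 10.03 and 9.74 in VD(+) HSC recipients. Here too VD(−) replicates 2 and 3 were the highest, and VD(−) replicate 1 and pool 1 the lowest, of the 10 arrays. The log2 fold changes over all arrays were −0.06 for Csf3r (SE 0.21), 0.13 for Trem1 (SE 0.14) and 0.04 for Cxcr2 (SE 0.17).

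Other measures also differed among the VD(−) arrays. Kdm5d, Eif2s3y and Uty, which lie on the Y chromosome, had a mean log2 value of 6.64, 2.35, 2.44, 6.80 and 5.31 in the VD(−) arrays and between 2.25 and 2.56 in the VD(+) arrays. Arrays with Y-linked signal, which hold RNA of male cells, were thus found in VD(−) alone. The methods describe donor cells pooled from both sexes for both groups, and the labels do not give the sex of single samples. Which cells the Y-linked signal came from was not tested. Xist, which is made from the inactive X chromosome of female cells, was at 7.76, 10.1, 10.3, 8.14 and 9.83 in VD(−) and between 10.2 and 10.3 in VD(+). The mean deviation of the 11 measured B cell markers was 0.32, −0.49, −0.75, 0.57 and −0.09 in VD(−) and −0.21, 0.17, 0.22, 0.15 and 0.12 in VD(+). Their mean level ran between 6.45 and 7.76 in VD(−) and between 6.99 and 7.41 in VD(+). Of the 11, 8 had log2 fold changes below 0 and 3 above, against 49.1% of all probe sets above 0. The share above 0 was 57.4% for the 8770 genes at or above the level of the least bright neutrophil gene. A nominal p under 0.05 was reached by 4 of the 11 B cell markers, all lower, against 3.23% of all probe sets lower. Fcer2a alone passed an adjusted p under 0.05, against 0.118% of all probe sets. Its mean was 5.82 ± 0.10 across VD(−) arrays and 6.40 ± 0.13 across VD(+) arrays (SD, n = 5 each). The spread in VD(−) was widest in Vpreb1, Igll1, Rag1 and Dntt, genes of B cell precursors (SD 1.504, 1.43, 1.22 and 0.86), against an SD of 0.10 for Fcer2a. The 9 tissue macrophage markers all had log2 fold changes above 0 (median 0.20), against 49.1% of all probe sets. Of these, 2 were higher at a nominal p under 0.05, against 3.85% of all probe sets, and 0 passed an adjusted p under 0.05. In 1 of them, Vsig4 (log2 fold change 0.84), the groups did not overlap, as in 1.55% of all probe sets. The mean level of the 9 markers ran between 7.31 and 7.85 in VD(−) and between 6.86 and 7.50 in VD(+). That of 7 of the 8 monocyte markers ran between 7.39 and 7.46 in VD(−) and between 7.39 and 7.45 in VD(+). Among these 7, Ccr2 was higher (log2 fold change 0.28) and Nr4a1 lower (−0.29) at a nominal p under 0.05, against 3.85% and 3.23% of all probe sets. Of the 7, 0 passed an adjusted p under 0.05. The mean deviation of the 6 T and NK cell markers, 0 of them at a nominal p under 0.05, was −0.40, 0.10, 0.50, −0.38 and 0.36 in VD(−) and −0.11, −0.27, 0.27, −0.19 and 0.12 in VD(+). That of the 4 measured stroma markers was 0.17, −0.04, −0.08, 0.47 and 0.15 in VD(−) and −0.38, −0.15, 0.02, −0.25 and 0.09 in VD(+). The part of sex and of other cell types in the neutrophil values was not tested.

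**Figure D4:**
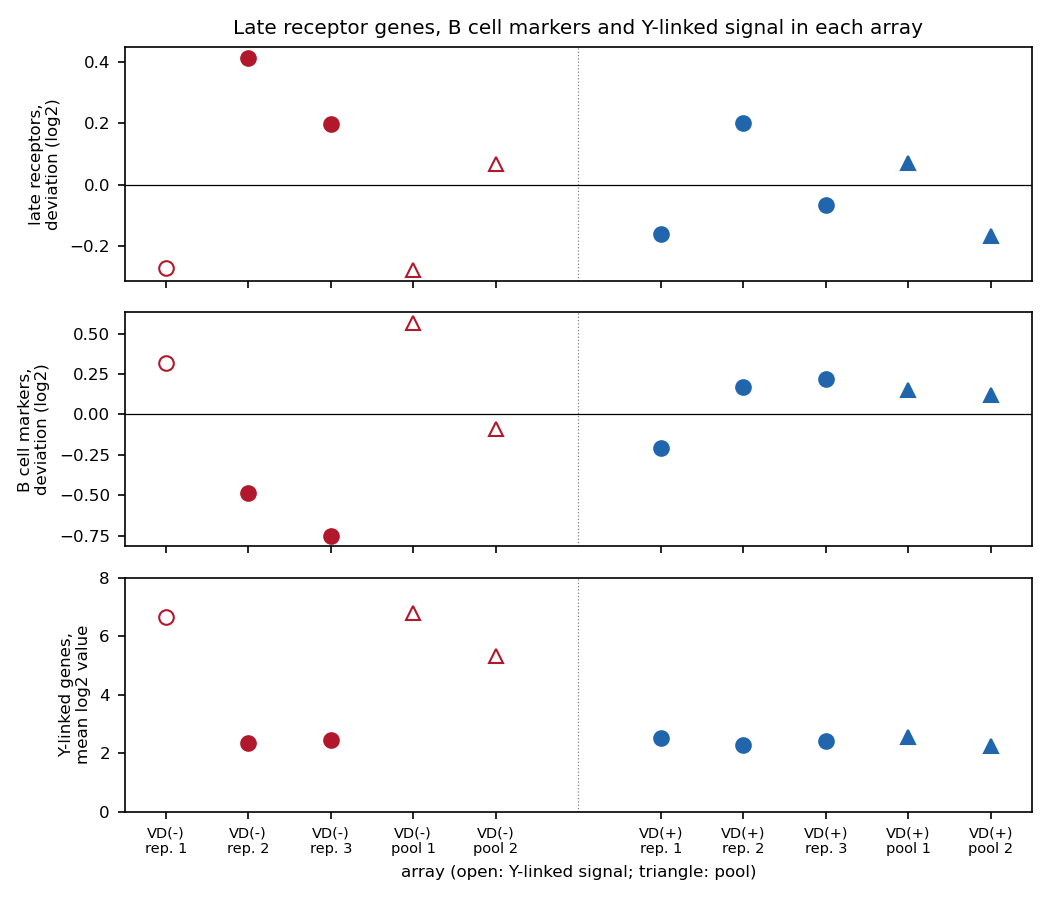
Mean deviation of the 7 late receptor genes (top) and of 11 B cell markers (middle) from their mean over 10 arrays, and mean log2 value of 3 Y-linked genes (bottom), in the 5 VD(−) arrays in red and the 5 VD(+) arrays in blue. VD(−) replicates 2 and 3, which lack Y-linked signal, are high in late receptors (0.41 and 0.20) and low in B cell markers (−0.49 and −0.75).

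The comparison was repeated on the arrays without Y-linked signal, VD(−) replicates 2 and 3 against the 5 VD(+) arrays. These 2 arrays were already seen to be high in many of the genes, so the values that follow describe them and are no test. The log2 fold changes were then above 0 in 36 of the 39 genes (92.3%), against 46.8% of all probe sets, with a median of 0.15 over the list, 0.13 for secondary and tertiary granule genes, 0.39 for late receptors and 0.05 for cytosolic and oxidase genes. At a nominal p under 0.05, 7 genes were higher (17.9%) and 0 lower, against 2.97% of all probe sets higher. These were Cebpd, Trem1, Csf3r, Cxcr2, Fcnb, Padi4 and Prtn3. The genes vary together, so that 7 of them are not 7 separate results. No gene had an adjusted p under 0.05. The log2 fold change was 0.50 for Cebpd, 0.44 for Trem1, 0.41 for Csf3r, 0.39 for Cxcr2 and 0.60 for Il1r2. Camp stood at 0.03, S100a8 at −0.05 and S100a9 at −0.04. These values rest on 2 VD(−) arrays, which also had the lowest mean of the B cell markers among the 10 arrays. In the 3 single samples of each group, which include VD(−) replicate 1, the median was 0.04 with 27 of 39 above 0, and in the 2 pools of each group it was −0.08 with 9 of 39 above 0. Neither gave a gene at a nominal p under 0.05.

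**Figure D5:**
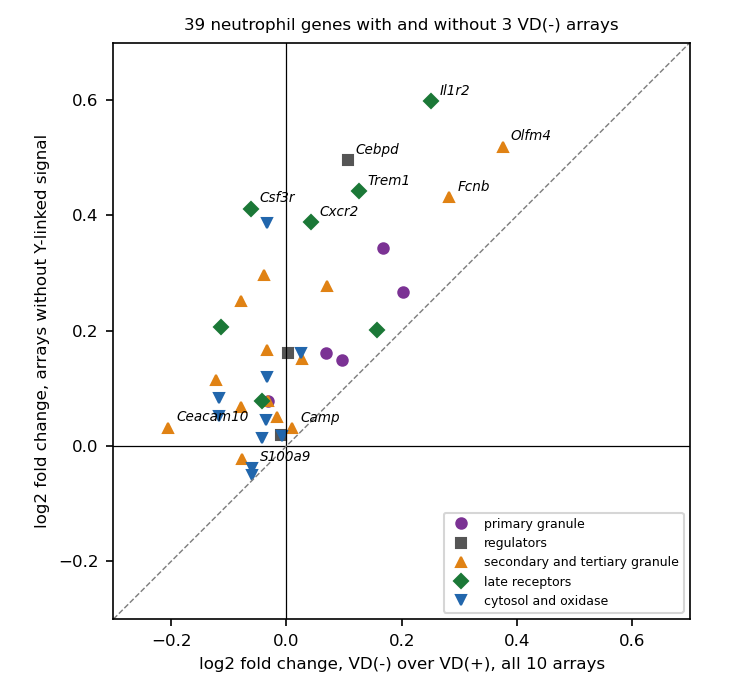
Log2 fold change, VD(−) over VD(+), of the 39 neutrophil genes in the 7 arrays without Y-linked signal (y axis) against that in all 10 arrays (x axis), with the line of equal values dashed. On the y axis 36 genes lie above 0, with Il1r2 at 0.60 and Cebpd at 0.50, while S100a9 lies at −0.04.

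A further list of 36 genes linked to neutrophils, outside the 42 names, had 31 measured members, with a median log2 fold change of 0.03. Not all are genes of neutrophils alone, since the list holds Cxcl12, and Irf8 is also among the monocyte markers. At a nominal p under 0.05, 4 were higher, Cxcl12 among them, and 1 lower, against 3.85% and 3.23% of all probe sets. Of the 31, 0 passed an adjusted p under 0.05. Ctsc encodes cathepsin C, which activates the granule serine proteases elastase, cathepsin G and proteinase 3. It was at 8.60, 8.70, 9.01, 8.63 and 8.81 in VD(−) HSC recipients, against 8.20, 8.48, 8.33, 8.58 and 8.33 in VD(+) HSC recipients. The groups did not overlap, as in 1.55% of all probe sets, and the log2 fold change was 0.37 (adjusted p = 0.428 from limma, SE 0.10). Asprv1, a protease gene expressed in neutrophils, had a log2 fold change of 0.62 (adjusted p = 0.473 from limma, SE 0.18). Cxcl12, the marrow chemokine that retains neutrophils, had 0.24 (SE 0.10) and Itgb2l, an integrin gene of mouse neutrophils, had −0.20 (SE 0.08), with adjusted p-values of 0.663 and 0.671 from limma. Cxcl12 is made mainly by stromal cells of the marrow. The 4 of 5 stroma markers that were measured all had log2 fold changes above 0, against 49.1% of all probe sets. The share was 57.4% for the 8770 genes at or above the level of the least bright neutrophil gene. The stroma markers had a median of 0.26, with 2 higher at a nominal p under 0.05 (3.85% of all probe sets) and 0 at an adjusted p under 0.05. Cdh11 stood at 0.40 and Lepr at 0.33. The part of stroma in the Cxcl12 value was not tested.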

How the data were processed

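Total RNA from the BM of 5 VD(−) and 5 VD(+) HSC recipient samples was hybridised to 1 array each. Signals were turned into log2 values per probe set by the authors, with Partek Genomics Suite 6.6 per the methods and RMA per the labels. RMA removes background and gives the arrays one distribution, so differences in total RNA are lost. Genome build and filters were not given in the sources used here. A miRNA array is named in the methods, but the probe sets belong to a mouse gene array. Array medians lay between 4.74 and 4.80, no 2 arrays were identical, and precision is limited by the number of arrays. The sources do not say whether a pool shares mice with the single samples, so the p-values reflect variation between arrays, which may be technical. The table had 0 unused columns.

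Genes were named from the array's annotation, and a gene with several probe sets was taken at the one with the highest mean. Groups were compared with limma 3.58.1 in R 4.3.3 (lmFit and eBayes, two-sided), with Benjamini-Hochberg adjustment over 35556 probe sets and a threshold of 0.05. The limma procedure was tested on simulated data. Single genes were tested by exact permutation of 5 against 5 arrays, where the smallest p is 0.00794. Values per array are given for genes at a nominal p under 0.05 and, in each role, for the 2 smallest p-values and the highest mean. Of the further listed genes the 4 with the smallest p are named. Members and lists were chosen with earlier results of these data known. An array counted as without Y-linked signal below a mean of 4, a setting also chosen with earlier results known. Alternatives were the brighter probe sets alone, the methods' t-test, cyclic loess, array weights, a trended and robust spread, pool or single as a covariate, single samples or pools alone, the replicate number as a block, the level of Y-linked genes less that of Xist as a covariate, arrays without Y-linked signal alone, the mean of a gene's probe sets and leaving out each array.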

Additional observations from a re-analysis of the deposited data

Results flagged for a closer look

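In 2 of the 78 groups of 5 arrays tested, 1 for each neutrophil gene and group, the highest array stood apart from the other 4 by more than Dixon's limit. Chance gives about 1 in 20 groups. Both were VD(−) replicate 2. For Ceacam10, a carcinoembryonic antigen family gene, this array was at 8.93 and the next at 8.07, a gap of 0.853 of the range of the VD(−) group. For Ly6g it was at 11.06 and the next at 10.38, a gap of 0.717 of the range. Without that array Ceacam10 had a log2 fold change of −0.39 and Ly6g of −0.28, with adjusted p-values of 0.586 and 0.713 from limma. No VD(+) group was marked in this way.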

How the results depend on the processing

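No neutrophil gene reached an adjusted p under 0.05 under any alternative run, and the smallest adjusted p was 0.182, for Cebpd with a covariate for Y-linked signal (Y-linked genes less Xist). Some alternatives could not move the fold changes of the 39 genes. Among them were the brighter probe sets alone, the trended and robust spread, and pool or single as a covariate. The mean of a gene's probe sets could not either, since each gene had 1. The number of genes higher at a nominal p under 0.05, 1 over all arrays, was 0 with the methods' t-test, 2 with array weights, 0 in the single samples alone, 0 in the pools alone, 10 with the Y-linked covariate (3.77% of all probe sets) and 7 in the arrays without Y-linked signal alone (2.97%). Leaving out 1 array gave 0 to 2 such genes, and 0 to 2 lower ones. The 2 lower ones were Ceacam10 and Ly6g without VD(−) replicate 2. Fcnb kept log2 fold changes of 0.21 to 0.36 when 1 array was left out, with the lowest without VD(−) replicate 2. With the Y-linked covariate the median log2 fold change was 0.14 over the 39 genes, 0.13 for secondary and tertiary granule genes and 0.42 for late receptors. In the arrays without Y-linked signal it was 0.15, 0.13 and 0.39. Y-linked genes less Xist hardly varied among the VD(+) arrays, so the covariate values and counts lean on the same VD(−) replicates 2 and 3. They are no separate test. The cause of the higher medians was not tested. Leaving out 1 array moved the median of the 39 genes between −0.07 and 0.02. With the replicate number as a replicate block, 1 gene was higher at a nominal p, Fcnb had an adjusted p of 0.604, and 3 of all probe sets passed an adjusted p under 0.05, against 42 without it. Deviations of arrays with the same number correlated between −0.10 and 0.12, and 1 of the 5 VD(−) arrays correlated best with its own number, so the numbers were not taken to pair the samples. With 5 arrays a group, a difference of any size within the interval given for a gene may be present.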
